A study of Mus musculus with 4 samples.

Results

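The genes of polyamine synthesis and turnover were followed in a mouse large pre-B cell line. They are 8 genes chosen by symbol: Odc1, Amd1, Srm and Sms of synthesis, Oaz1, Oaz2 and Azin1 of the control of ornithine decarboxylase, and Sat1 of acetylation. All 8 were found among the 23420 rows of the count files. Both groups were the same Irf4/8-/- line, deficient in the transcription factors Irf4 and Irf8, grown with interleukin 7 on OP9 cells, a stromal feeder line. One group had received a retrovirus with a GFP reporter and a hairpin against luciferase (shLuc), and the other a hairpin against Myb (shMyb). GFP-positive cells were sorted after 72 hours in 10 ng/ml of interleukin 7, and 2 libraries per group were sequenced. Each duplicate was its own set of wells, all from 1 line. The p-values therefore reflect only how far such sets differ, which may be technical.

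Polyamines (putrescine, spermidine and spermine) are small cations that bind nucleic acids and that dividing cells need for growth. Ornithine decarboxylase makes putrescine, and spermidine synthase and spermine synthase add aminopropyl groups that come from decarboxylated S-adenosylmethionine. When polyamines are plentiful, antizyme is made through a ribosomal frameshift, binds ornithine decarboxylase and sends it to the proteasome, while antizyme inhibitor binds antizyme in its place. Spermidine/spermine acetyltransferase marks polyamines for oxidation or export. Odc1 is a textbook target of MYC, a factor that pre-B cells use in growth.

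Libraries held 36573743 to 44682954 counts. The Myb transcript was not lower where its hairpin was used, at 608 ± 11.5 CPM (counts scaled to library totals and TMM, mean ± SD of 2 libraries) with the luciferase hairpin against 628 ± 15.7 CPM with the Myb hairpin (edgeR adjusted p = 0.283). Each direction below thus compares the libraries labelled shMyb with those labelled shLuc, not cells shown to have less Myb. All 13 pre-B markers were detected, and they summed to 6634 and 6750 CPM for shLuc against 6078 and 5997 CPM for shMyb. Stromal markers summed to 41.3 to 53.4 CPM in shLuc and 48.7 to 55.3 CPM in shMyb, with at least 1 count for all 12, and 2 were called higher and 2 lower. T cell markers summed to 121 to 129 CPM over all libraries, mostly Lck, and 1 of the 3 tested was called higher (Lck) and 2 lower (Zap70 and Cd28), while Cd4 and Cd8a were at 0. Myeloid markers summed to 3.56 to 4.10 CPM in shLuc and 7.08 to 8.18 CPM in shMyb, with Elane at 0 throughout. Of 6 tested, 3 were called higher and none lower. Among all tested genes below 1 CPM, the median log2 fold change was 0.52 and 34.3% were called higher. Among those of 1 to 3 CPM the median was 0.33, and 39.2% were called higher. Erythroid markers summed to 1.81 to 4.48 CPM in shLuc against 6.54 to 9.19 CPM in shMyb, nearly all of it Hbb-bs, which did not pass, with Hba-a1 and Hba-a2 at 0. In cells taken in bulk, fewer cells of a type and less RNA per cell cannot be told apart.

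Of the 8 polyamine genes 7 had enough counts to be tested. In the libraries labelled shMyb, 4 fell (Odc1, Srm, Azin1 and Sms), 1 rose (Sat1) and 2 did not pass (Oaz1 and Oaz2), while Amd1 was not tested. A gene was called at an edgeR adjusted p below 0.05 over all 12610 tested genes. By that rule 62.2% of all tested genes were called, 31.7% lower and 30.6% higher. By median the 7 tested members stood at a log2 fold change of -0.10, and all tested genes at 0.0048. Groups did not overlap in 6 of the 7, the exception being Oaz1, and in 82.1% of all tested genes.

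**Figure D1:**
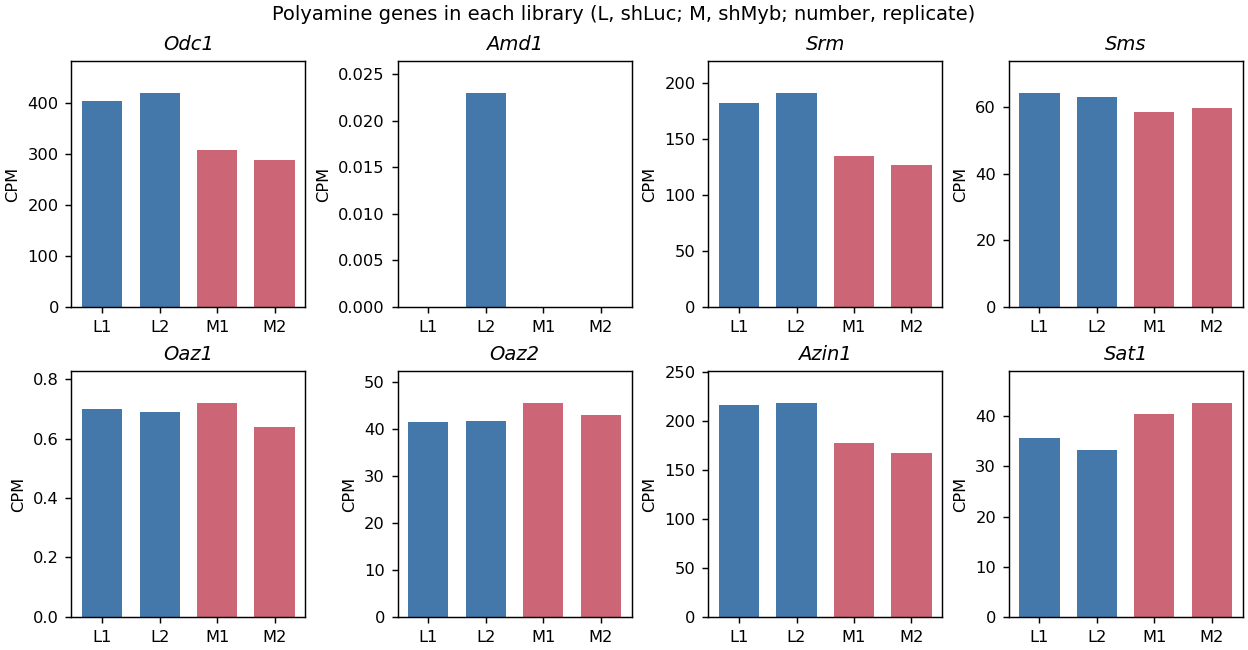
Level of each gene in each library, in CPM scaled by TMM on an axis from 0, with shLuc libraries in blue and libraries labelled shMyb in red. Odc1, Srm and Azin1 are lower in both shMyb libraries than in both shLuc libraries, Sat1 is higher, and Amd1 has a single count in 1 library.

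Of the synthesis genes, Odc1 and Srm showed the largest differences. Odc1 encodes ornithine decarboxylase, the first and rate-limiting enzyme of the pathway (chromosome 12, 17544794 to 17551505, plus strand, GRCm38, protein coding). The shLuc libraries held 405 and 420 CPM of it, against 308 and 288 CPM for the libraries labelled shMyb. Both shMyb libraries lay well below both shLuc libraries. It differed by -0.47 on the log2 scale, with a 95% interval of -0.55 to -0.39 (SE 0.04, adjusted p = 1.79e-10), or a fold of 0.723. Genes of high CPM, Odc1 among them, were lower in general. Among the 619 genes of at least 300 CPM, the median log2 fold change was -0.13 and 57.5% were called lower. With the trend of fold change on level removed, Odc1 was at -0.39 and stayed called.

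Srm encodes spermidine synthase (chromosome 4, 148591503 to 148594993, plus strand, protein coding). Its shLuc values were 183 and 191 CPM and its shMyb values 135 and 127 CPM, again with no overlap. Its log2 fold change of -0.51 had a 95% interval of -0.59 to -0.43 (SE 0.04, adjusted p = 3.86e-11), which is a fold of 0.702. Among the 1941 genes of 100 to 300 CPM the median was -0.05, and 44.3% were called lower. Srm stayed called in all 16 alternative analyses, with log2 fold changes from -0.61 to -0.45, and so did Odc1, from -0.52 to -0.39.

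Sms encodes spermine synthase, the last step of synthesis (chromosome X, 157443855 to 157492287, minus strand, protein coding). Its shLuc values were 64.3 and 63.1 CPM, against shMyb values of 58.8 and 59.9 CPM. The groups did not overlap, yet the gap was small beside those of Odc1 and Srm. Its log2 fold change of -0.10 had a 95% interval of -0.19 to -0.02 (SE 0.04, adjusted p = 0.0376). That call held in 6 of 16 alternatives. With library totals alone the call ended (-0.04, adjusted p = 0.404). It also ended when shLuc replicate 1 (-0.11, adjusted p = 0.083), shLuc replicate 2 (-0.13, adjusted p = 0.0543) or shMyb replicate 1 (-0.09, adjusted p = 0.12) was left out. Sms shares 28.7% of the 50-base words of its longest coding transcript with a processed pseudogene, Sms-ps.

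Amd1 encodes S-adenosylmethionine decarboxylase, which supplies the aminopropyl groups (chromosome 10, 40287458 to 40302186, minus strand, protein coding). The files held 0 and 1 counts for it in shLuc and 0 and 0 in shMyb. A count of 0 allows up to 3 counts, or 0.0689 to 0.0799 CPM per library, for counting error only. No fold is given, because both groups were at or under that limit. Amd2, an intronless copy on the same chromosome (35708675 to 35711892, minus strand), was at 0 in all 4 libraries. Aligned over 3198 bases, the transcripts of Amd1 and Amd2 are 99.7% identical with 10 mismatches, and 87.6% of the 50-base words of Amd1 occur in another annotated gene. Over the 1005 coding bases they differ at 1 position, G796C, counted from the first coding base, with the Amd1 base first. The stretch of coding bases 766 to 825 around it shows how little separates them, with the differing base in capitals.
Amd1: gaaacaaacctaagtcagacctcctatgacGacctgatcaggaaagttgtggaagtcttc
Amd2: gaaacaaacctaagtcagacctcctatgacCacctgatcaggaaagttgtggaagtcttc
How the authors treated reads that map to several places is not given in the sources used here, and the part of the shared sequence in the low count was not tested.

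The control of ornithine decarboxylase rests on antizymes and their inhibitor. Oaz1 encodes antizyme 1 (chromosome 10, 80826656 to 80829290, plus strand, protein coding), whose reading frame continues past a stop codon by a frameshift. The stretch around that stop codon, in capitals, is shown because a processed pseudogene on chromosome 17 (Oaz1-ps) carries the same 60 bases, whereas antizyme 2 (Oaz2) differs at 12 of them.
Oaz1: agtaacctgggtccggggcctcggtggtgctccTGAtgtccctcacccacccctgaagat
Oaz1-ps: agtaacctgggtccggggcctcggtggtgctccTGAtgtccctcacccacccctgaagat
Oaz2: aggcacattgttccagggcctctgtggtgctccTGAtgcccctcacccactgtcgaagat
Over 681 aligned bases the longest coding model of Oaz1 and the pseudogene differ at 1 base, and that model lacks 4 bases of the pseudogene. Of the 50-base words of Oaz1, 52.2% occur in Oaz1-ps. Its counts were 28 and 30 in shLuc and 28 and 24 in shMyb, or 0.701, 0.689, 0.719 and 0.639 CPM. The groups overlapped, and the log2 fold change was -0.03 with a wide 95% interval of -0.69 to 0.63 (SE 0.32, adjusted p = 0.939). Among the 1673 genes below 1 CPM the median was 0.52. With the trend on level removed, Oaz1 was at -0.50 (adjusted p = 0.157). Oaz1-ps was listed at 0 counts in all 4 libraries. The part of shared sequence in these counts was not tested.

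**Figure D2:**
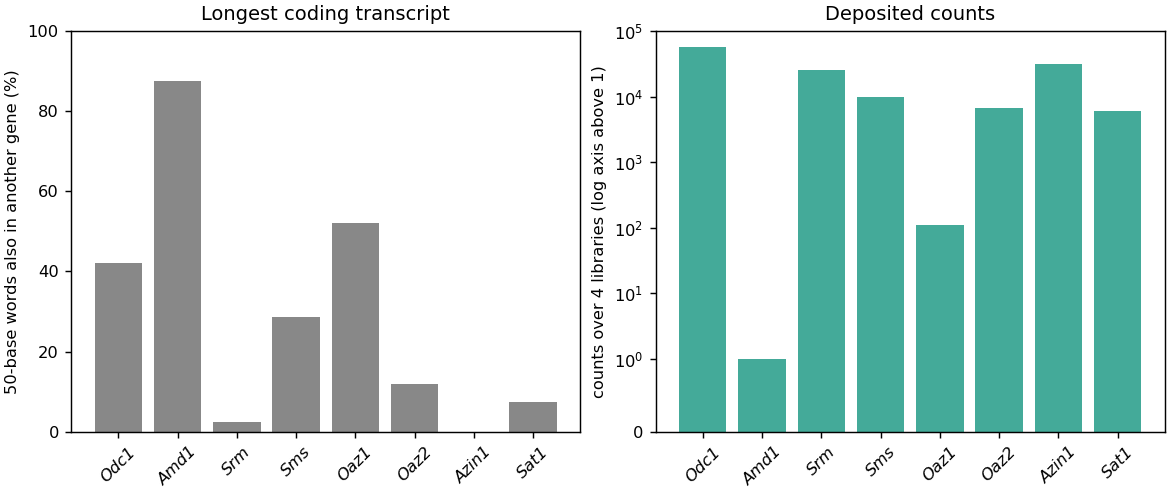
Left, share of the 50-base words of each gene's longest coding transcript that also occur in transcripts of another annotated gene, in percent. Right, deposited counts summed over the 4 libraries, on a log axis above 1. Amd1 and Oaz1 have the highest shares, 87.6% and 52.2%, and the lowest counts, while Odc1 has 42.2% shared with 15 other genes and the highest count.

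Oaz2, antizyme 2 (chromosome 9, 65668001 to 65690300, plus strand, protein coding), had shLuc values of 41.5 and 41.6 CPM beside shMyb values of 45.4 and 42.9 CPM. The shMyb libraries lay above the shLuc libraries by a small margin. A log2 fold change of 0.09 (95% interval -0.01 to 0.18, SE 0.05, adjusted p = 0.108) did not pass. Oaz2 was called higher with library totals alone (0.15, adjusted p = 0.00858) and with the trend on level removed (0.12, adjusted p = 0.0323).

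Azin1 encodes antizyme inhibitor 1, a relative of ornithine decarboxylase without its activity (chromosome 15, 38487427 to 38519266, minus strand, protein coding). None of its 50-base words occurred in another annotated gene. The shLuc libraries held 216 and 218 CPM and the shMyb libraries 178 and 167 CPM, with no overlap. On the log2 scale it differed by -0.33, with a 95% interval of -0.41 to -0.25 (SE 0.04, adjusted p = 4.41e-08), a fold of 0.794. Azin1 was called lower in all 16 alternatives, from -0.38 to -0.27. Exons of Azin1 overlap the antisense transcript Gm49077 over 358 bases, and the strand setting of the counting is not given in the sources used here.

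Sat1 encodes spermidine/spermine N1-acetyltransferase, the rate-limiting step of polyamine breakdown (chromosome X, 155213132 to 155216449, minus strand, protein coding). It went the opposite way from Odc1 and Srm. The shLuc libraries held 35.6 and 33.3 CPM, the shMyb libraries 40.5 and 42.6 CPM, and the groups did not overlap. On the log2 scale it differed by 0.27, with a 95% interval of 0.17 to 0.37 (SE 0.05, adjusted p = 5.53e-05), a fold of 1.21. Among the 3731 genes of 30 to 100 CPM, the median was -0.04 and 27.1% were called higher. Sat1 was called higher in all 16 alternatives, from 0.21 to 0.37.

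**Figure D3:**
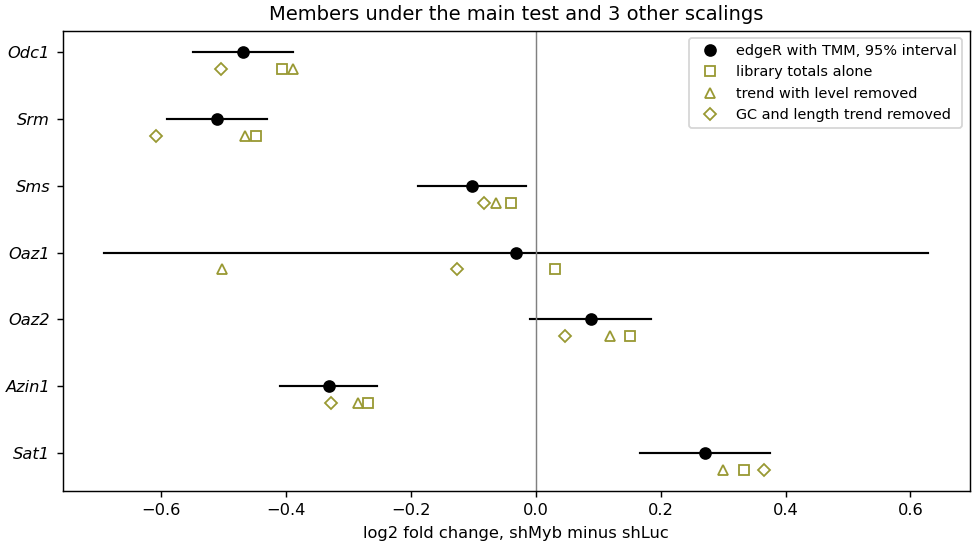
Log2 fold change, shMyb minus shLuc, for the 7 tested genes with 95% intervals from edgeR (black), and the same value under 3 other scalings (open symbols). Odc1, Srm and Azin1 stay below 0 and Sat1 above 0 under each scaling, Sms comes near 0, and Oaz1 moves from -0.50 to 0.03.

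Promoter windows are shown for 3 genes that fell or rose, to set the opposite directions of Odc1 and Sat1, and the small fall of Sms, beside their sequences. RefSeq windows on GRCm38.p6 were found for 6 of the 8 genes, all but Azin1 and Srm. Each window is the 250 bases before the RefSeq start, which can differ from the GENCODE start given above. Capitals mark the letters CACGTG (the E-box that MYC and its partner MAX bind), AACNG (a core of the MYB site) and GGGCGG (the GC box), searched on both strands with no overlap between different motifs in these windows.
Odc1: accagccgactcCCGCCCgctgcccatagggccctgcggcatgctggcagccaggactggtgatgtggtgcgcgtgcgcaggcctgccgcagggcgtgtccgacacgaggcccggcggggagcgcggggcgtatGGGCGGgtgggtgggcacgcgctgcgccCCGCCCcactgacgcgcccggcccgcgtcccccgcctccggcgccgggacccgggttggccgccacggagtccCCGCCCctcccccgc
Sat1: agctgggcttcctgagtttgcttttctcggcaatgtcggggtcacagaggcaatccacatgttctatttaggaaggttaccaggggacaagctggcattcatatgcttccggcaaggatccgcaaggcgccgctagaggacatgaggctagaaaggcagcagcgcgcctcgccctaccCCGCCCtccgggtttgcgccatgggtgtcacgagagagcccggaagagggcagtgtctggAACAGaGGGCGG
Sms: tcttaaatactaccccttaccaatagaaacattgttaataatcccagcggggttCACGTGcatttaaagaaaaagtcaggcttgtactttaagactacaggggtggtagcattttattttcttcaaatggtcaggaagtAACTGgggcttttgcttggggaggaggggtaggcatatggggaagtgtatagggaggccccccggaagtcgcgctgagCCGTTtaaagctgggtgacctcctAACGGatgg
The Odc1 window (chr12:17544623-17544872, plus strand) was 80% G or C and held 4 GC boxes. Its end lies inside the GENCODE gene, which starts at 17544794. The Sat1 window (chrX:155216450-155216699, minus strand) held 2 GC boxes and 1 AACNG match, at position -12 from the start. The Sms window shown (chrX:157492288-157492537, minus strand) held 1 CACGTG match at position -196 and 3 AACNG matches. A second Sms window further downstream held 4 GC boxes, 2 AACNG matches and no CACGTG match, whereas the window shown held no GC box. No CACGTG match was found in the windows of Odc1, Sat1, Amd1, Oaz1 and Oaz2. Among 32851 windows of this length 6.02% held CACGTG, 74.2% AACNG and 32.7% GGGCGG. These matches describe letters in a window and were not tested for binding. Sequence outside the windows, such as that downstream of the start, was not searched, so a missing match does not mean that a gene lacks the site.

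Ratios of members counted in the same library do not depend on how libraries are scaled. The shLuc libraries held 0.088 and 0.0793 Sat1 counts per Odc1 count, against 0.132 and 0.148 for shMyb. The log2 ratio was higher by 0.74, from -3.58 ± 0.11 to -2.84 ± 0.12 (SD, n = 2), a fold of 1.67. Sat1 per Srm went from 0.195 and 0.174 to 0.2998 and 0.334, higher by 0.78 on the log2 scale. Sms per Srm, which sets the last synthesis step beside the one before it, went from 0.352 and 0.330 to 0.435 and 0.471, higher by 0.41. Within the pair of related proteins, Azin1 per Odc1 went from 0.534 and 0.518 to 0.576 and 0.580, higher by 0.14. In each of the 7 ratios computed the groups did not overlap, and the gap exceeded the SD of either group. Single genes did not overlap in 82.1% of all tested genes, and the share over other gene pairs was not computed. Odc1 per Oaz1 (-0.43), Azin1 per Oaz1 (-0.30) and Oaz2 per Oaz1 (0.12) rest on the 24 to 30 counts of Oaz1. The log2 fold change of Oaz1 itself had an SE of 0.32, larger than the SDs of these ratios. The gaps in the ratios to Oaz1 were therefore not read as differences. An exact two-sided permutation test gave 0.3333 for each of the 7 ratios, before and after Benjamini-Hochberg adjustment, which is the smallest p that 2 against 2 can give. Amd1 per Odc1 was not computed, because Amd1 was at 0 in every library but shLuc replicate 2, which held 1 count.

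**Figure D4:**
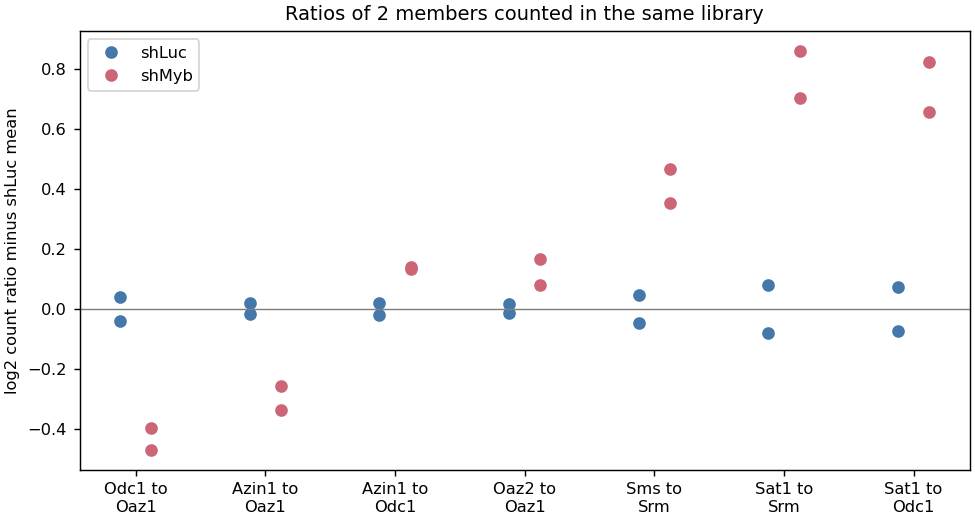
Log2 ratio of 2 genes' counts within each library, minus the shLuc mean, with shLuc libraries in blue and libraries labelled shMyb in red. Sat1 to Srm and Sat1 to Odc1 show the widest gaps, 0.78 and 0.74, and Azin1 to Odc1 a narrow one, 0.14.

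Levels were compared between genes only per length, as counts per kilobase of merged exons scaled to equal totals (the TPM unit). In shLuc the order was Odc1 at 436 ± 5.54 TPM, Srm at 421 ± 7.67, Azin1 at 125 ± 0.980, Oaz2 at 50.1 ± 0.588, Sat1 at 44.7 ± 2.69 and Sms at 38.2 ± 1.03 (SD, n = 2). Oaz1 at 0.978 TPM and Amd1 at 0.0115 TPM stood last, with the limits given above. In the libraries labelled shMyb, Odc1 was at 345 ± 12.4 TPM and Srm at 323 ± 9.95 TPM. Sms was at 38.9 ± 0.976 TPM, and its groups overlapped on this scale. There Sat1 at 59.1 ± 2.74 TPM and Oaz2 at 58.2 ± 1.66 TPM could not be ordered, since their libraries overlapped. With the longest coding transcript as length, Srm was at 331 and Odc1 at 443 TPM in shLuc, and Sat1 at 70.3 stood above Oaz2 at 53.5. The margin between Odc1 and Srm and the order of Sat1 and Oaz2 thus rest on the length used.

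The steps around these genes were followed in 7 lists with 61 genes, of which 46 were tested. In the libraries labelled shMyb 22 fell, 9 rose and 15 did not pass, with a median of -0.11, beside 31.7% lower and 30.6% higher over all tested genes. Library totals alone gave 15 lower and 11 higher, and leaving out shMyb replicate 2 gave 15 lower and 7 higher. Of the 31 called genes 20 kept their call in each of the up to 14 alternatives run on them. Other enzymes and antizymes had 3 of 7 genes tested, with 1 higher. That gene was Smox, spermine oxidase, with 28 and 22 counts for shLuc against 64 and 78 for shMyb. Its level went from 0.603 ± 0.138 CPM to 1.86 ± 0.307 CPM, a log2 fold change of 1.63 (SE 0.28, adjusted p = 1.78e-05). Genes of low CPM were higher in general. Among the 985 genes of 1 to 3 CPM the median was 0.33, and 39.2% were called higher. Over 14 alternatives Smox ranged from 1.24 to 1.85. Paox, which oxidises acetylated polyamines, was at -0.17 (adjusted p = 0.0927), and Azin2, a second antizyme inhibitor, at -0.40 (adjusted p = 0.346). Azin2 rests on 16 to 32 counts per library. With the trend on level removed both Paox and Azin2 were called lower, and Paox also with the GC and length correction. Over the alternatives Paox ranged from -0.26 to -0.10.

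Of 12 polyamine transport genes 6 were tested, with 2 higher and 3 lower (median -0.05, and 0.02 with library totals alone). Over all tested genes 30.6% were called higher and 31.7% lower. Atp13a2, a lysosomal polyamine exporter, rose by 0.86 on the log2 scale, with 78.1 ± 0.311 CPM for shLuc against 142 ± 1.97 CPM (SE 0.04, adjusted p = 5.34e-16). Its relative Atp13a3 fell by 0.10 from 427 CPM, a call that ended with library totals, the trend correction, the replicate block, without shLuc replicate 1 and without shMyb replicate 2. Slc18b1, a vesicular polyamine transporter, had 52 and 54 counts for shLuc against 7 and 9 for shMyb, a log2 fold change of -2.58 (SE 0.37, adjusted p = 1.33e-06). Cav1, caveolin 1, which stromal cells also express, was at -1.21 (adjusted p = 4.84e-06), while of the stromal markers Fbn1 (-1.35) and Col6a1 (-0.49) were called lower and Sparc (0.42) and Postn (1.01) higher. Their part was not tested. Slc12a8 was called higher on 2 to 11 counts per library, a call that ended with DESeq2, the trend correction and 3 of the 4 libraries left out, shLuc replicate 1, shMyb replicate 1 and shMyb replicate 2.

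Of 12 genes of arginine and ornithine supply 8 were tested, with 2 higher and 4 lower. The shares over all tested genes were 30.6% higher and 31.7% lower. Oat, ornithine aminotransferase, was lower, 112 ± 2.33 CPM against 141 ± 1.63 CPM, at -0.33 (SE 0.04), and Slc7a1, a cationic amino acid transporter, fell by 0.27. Slc7a6 (-0.12) and Aldh18a1 (-0.10) also fell. Both calls ended with library totals, DESeq2, the trend correction and without shMyb replicate 2, and that of Aldh18a1 also with the replicate block and without shLuc replicate 2. Asl, argininosuccinate lyase, rose by 0.24 (adjusted p = 0.00266), which ended with the GC and length correction and without shLuc replicate 1. Arg1, arginase 1, was called higher at 2.07 (SE 0.51, adjusted p = 0.00102) on 4 and 7 shLuc counts against 16 and 27 shMyb counts, which ended without shMyb replicate 2. Of all tested genes below 1 CPM, 34.3% were called higher. Myeloid cells express Arg1. Of the 6 tested myeloid markers Itgam, Cd14 and Lyz2 were called higher in the same libraries, while S100a8 (0.95), Ly6c2 (0.83) and Csf1r (-0.40) did not pass. Their part in this result was not tested.

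Supply and recovery of the methyl and aminopropyl donor were read from 2 lists. Of 12 genes of methionine and S-adenosylmethionine supply 11 were tested. Over all tested genes 31.7% were called lower. By level this share was 40.1% at 30 to 100 CPM, 44.3% at 100 to 300 CPM and 57.5% above. Of the 11 genes 7 were lower and 1 higher, with a median of -0.16. With library totals alone, with DESeq2, without shLuc replicate 2 or without shMyb replicate 2, 5 were lower. Slc7a5, the light chain of a large neutral amino acid transporter, was at 152 ± 6.28 CPM against 196 ± 1.95 CPM for shLuc (-0.37, SE 0.04). Mat2a, methionine adenosyltransferase, fell from 453 ± 10.0 to 377 ± 0.273 CPM (-0.26, SE 0.04), Ahcy, which hydrolyses S-adenosylhomocysteine, by 0.32, and Ahcyl1 by 0.23. The calls of Mtrr and Mat2b ended in 8 and 6 of 14 alternatives, among them library totals, DESeq2 and the trend correction. Slc43a2, another neutral amino acid transporter, rose from 60.6 ± 0.104 to 84.1 ± 1.43 CPM (0.47, SE 0.04). All 6 genes of methylthioadenosine salvage, which recycles the by-product of spermidine and spermine synthesis, were tested. Of these, 4 were lower and none higher (median -0.22), beside 40.1% lower among genes of 30 to 100 CPM. With library totals alone, with DESeq2 or without shMyb replicate 2, 3 were lower. Apip, at 0.07, was called higher only with the GC and length correction. Mtap, methylthioadenosine phosphorylase, was at 73.3 ± 1.01 CPM against 104 ± 0.817 CPM for shLuc (-0.51, SE 0.04, adjusted p = 2.74e-11). Enoph1 (-0.36) and Adi1 (-0.30) fell with it, as did Mri1 (-0.15), whose call ended with library totals, DESeq2 and without shMyb replicate 2.

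**Figure D5:**
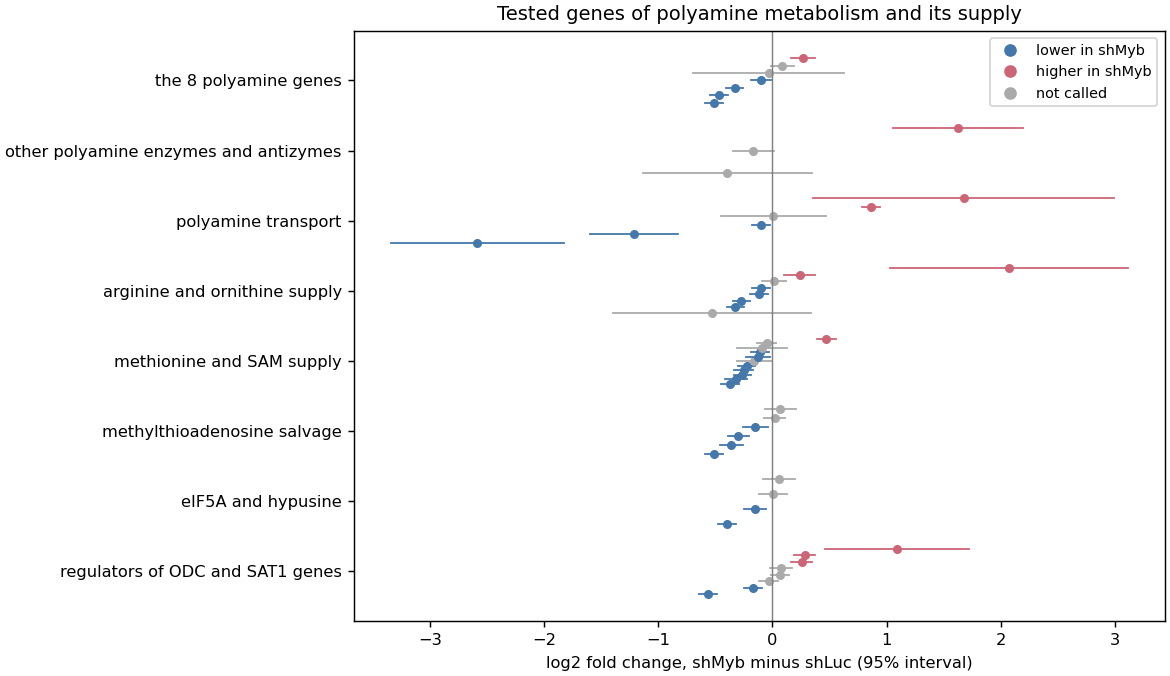
Log2 fold change, shMyb minus shLuc, with 95% intervals, for the tested members and the tested genes of 7 lists, 1 line per gene, coloured by call at an adjusted p below 0.05. Lower calls number 7 of 11 in the methionine supply list and 4 of 6 in the salvage list, beside 31.7% of all tested genes. By level that share was 40.1% at 30 to 100 CPM, 44.3% at 100 to 300 CPM and 57.5% above. The widest differences are those of Slc18b1 (-2.58) and Arg1 (2.07), both of low count.

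Spermidine is the donor for hypusine, a modified lysine that the translation factor eIF5A needs. All 4 genes of this step were tested, with 2 lower and none higher (median -0.08), beside 31.7% lower over all tested genes. Eif5a itself was lower, 955 ± 25.8 CPM against 1256 ± 36.998 CPM for shLuc, at -0.40 (SE 0.04, adjusted p = 3.92e-09). Among the 619 genes of at least 300 CPM the median was -0.13, and 57.5% were called lower. Over 14 alternatives Eif5a ranged from -0.45 to -0.24. Of the modifying enzymes, Dohh was at -0.16 (adjusted p = 0.00527), a call that ended with library totals, DESeq2 and without shMyb replicate 2, and Dhps at 0.01 (adjusted p = 0.948). Among 8 regulators of these genes 3 rose and 2 fell (median 0.07, and -0.0012 with the GC and length correction). The shares over all tested genes were 30.6% higher and 31.7% lower. Myc fell by 0.57 (SE 0.04) and its partner Max by 0.17 (SE 0.04). Mycn rose by 0.28 (SE 0.04), Mxi1, a MAX-binding antagonist of MYC, by 0.25 (SE 0.04), and Mycl by 1.09 from 0.524 CPM (SE 0.31), the last ending with DESeq2 and the trend correction. Nfe2l2, which activates antioxidant genes, Pmf1, a cofactor in Sat1 transcription, and Mnt did not pass, at 0.06, -0.03 and 0.08. With the GC and length correction 4 regulators were called higher, Nfe2l2 among them, and 4 lower, with Pmf1 and Mnt. Nfe2l2 was also called higher with library totals and with the trend correction, and Mnt with library totals.

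Genes with the profile nearest to that of Odc1 were sought among 8644 others of at least 10 CPM, by Euclidean distance of log2 CPM centred on the mean of 4 libraries. The 5 nearest were Mrpl50, Nabp1, Clpp, Rpp38 and Vps26b, at distances of 0.0071 to 0.0209, with log2 fold changes from -0.48 to -0.46. For Sat1 they were Mapkbp1, Stk38, Micall1, Zgpat and Nisch, at 0.0071 to 0.0156, with log2 fold changes from 0.26 to 0.28. With 4 libraries in 2 groups this measure mainly picks genes of like fold change.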

How the data were processed

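RNA-seq was read from 4 libraries, 2 labelled shLuc and 2 labelled shMyb, grouped by their titles. The authors deposited one table per library, with unnormalised counts listed by gene symbol. The submitters' processing notes name mm10 as the build and HTSeq, STAR, DESeq2 and FastQC as tools, without roles. The kit was strand-specific, per the labels' protocols. Neither the annotation nor the strand setting of the counting nor the handling of reads with several hits is given in the sources used here. Reads of near-identical copies may be lost or split. All genes were tested together with edgeR 4.0.16 in R 4.3.3 (filterByExpr with a minimum count of 10, TMM, glmQLFit with robust=TRUE, glmQLFTest, group as the only term), with Benjamini-Hochberg adjustment over the 12610 tested genes. CPM use TMM-scaled library sizes, and the SE is the size of the log2 fold change divided by the square root of F. The test was checked on simulated counts.

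Alternatives were DESeq2 1.42.0, limma-voom (limma 3.58.1), scaling by RLE or by library totals, testing without a filter or at 1 CPM in 2 libraries, robust=FALSE, a replicate block, each library left out, an adjusted p below 0.01, and offsets for level and for GC content and length. A crossed block and another gene length were added after seeing the data. Coordinates, exon lengths and transcripts are those of GENCODE M21 (GRCm38, the same assembly as mm10), which matched 21751 symbols by name and 1277 by an older symbol, with 392 unmatched. Sequence sharing was counted as exact 50-base words, and a read length was not assumed. The members and lists were chosen with earlier results of these data known. Named genes are the 8 members, Myb and Myc, tested genes of the lists (values for the 4 of smallest p and any of opposite direction by rule, the others given here chosen after their values were seen), and the 5 nearest profiles of Odc1 and Sat1.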

Additional observations from a re-analysis of the deposited data

How the results depend on the processing

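Odc1, Srm and Azin1 stayed lower and Sat1 higher in all 16 alternatives. With library totals alone and with the level trend removed, 2 members were called higher, since Oaz2 passed (0.15 and 0.12). Library totals also raised the share of called genes that were higher from 49.1% to 60.1%. The Sms call ended with library totals (-0.039), 1 CPM in 2 libraries (-0.090), DESeq2 (-0.10), the replicate block (-0.10, adjusted p = 0.0816), an adjusted p below 0.01 (-0.10), the level trend removed (-0.064) and the GC and length offset (-0.083). Leaving out single libraries gave -0.13 to -0.093 for Sms and 3 to 4 members lower. Oaz1 turned with library totals (0.031) and ranged from -0.12 to 0.048 with single libraries left out. Myb was called higher with library totals (0.11) and with the level trend removed (0.17). Apart from Sms, the replicate block changed no member's call. Same-numbered libraries deviated at a correlation of -0.17, so the numbers were not taken to pair them. Over all genes 7849 calls became 7341 with the replicate block and 8593 with the crossed block, which was added after seeing the data. The cause of these shifts was not tested. The depth of 24 to 30 counts limits Oaz1, and that of 0 to 1 count Amd1.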
